A study of Homo sapiens with 16 samples.

Results

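Dense chains of open regions are stretches of the genome in which accessible sites follow each other at short distances. Here neighbouring regions of the consensus set of 1 experiment, called 6086 after the labels, were chained when at most 5000 bp lay between the end of one region and the start of the next on the same chromosome. Chains of 5 or more regions were kept, and their regions shorter than 1000 bp are the members. This gave 3345 members in 625 chains, 5.87% of the 56949 regions of that experiment. The chains held 3690 regions in all, and 345 of them were left out because they were 1000 bp or wider. The choice used positions only and no measured level.

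Rh30 is a human alveolar rhabdomyosarcoma line that carries PAX3-FOXO1, the fusion transcription factor of this childhood muscle tumour. All libraries came from Rh30 cells in which the fusion bears an FKBP tag. The labels do not say whether these cells are a single clone. Cells received 500 nM dTAG47, a small molecule that brings proteins with this tag to a ubiquitin ligase so that they are degraded, or DMSO, the vehicle. Experiment 6086 covered 2, 4 and 24 h of dTAG47, experiment 6211 covered 0.5, 1 and 2 h, and each had its own DMSO group, for which the labels give no duration. Every group had 2 libraries, called A and B after the deposited columns, 16 in all. No library from untagged cells was analysed here, so what follows from losing the fusion and what the compound does otherwise cannot be told apart.

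The assay was ATAC-seq: a transposase cuts and tags DNA between nucleosomes, and reads pile up where chromatin is open. Clusters of closely spaced open sites are found at large enhancers, sometimes called super-enhancers, and along gene-dense stretches with many promoters. PAX3-FOXO1 is known to bind enhancer clusters in rhabdomyosarcoma together with the muscle factors MYOD1 and MYOG. Whether a given chain is an enhancer cluster or a row of promoters was not analysed here, because the regions lie on hg19 and no annotation on that build was used. Regions are therefore named by their hg19 position.

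Libraries of experiment 6086 held 18038062 to 31308682 reads in regions and those of experiment 6211 held 9934147 to 18275976. Levels are in CPM, the read count of a region scaled to the depth of its library with edgeR's TMM factors. A region is called lower or higher when edgeR's quasi-likelihood test gave a Benjamini-Hochberg adjusted p under 0.05 over all regions tested. The labels do not say that the 2 libraries of a group are separate cultures, so the p-values cover the spread of these libraries, which may be technical. Pooled over the groups, the biological coefficient of variation was 3.48% in experiment 6086 and 5.96% in experiment 6211. The groups were not alike: Spearman's rho between the 2 libraries was lowest in DMSO in both experiments. It was 0.987 there in experiment 6086, against 0.992 at 24 h, and 0.960 in experiment 6211, against 0.976 at 0.5 h.

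Most chains were short. Exactly 5 regions made up 344 of the 625 chains, 61 chains had 8 or more, and the longest had 24. The median chain spanned 10.3 kb, and spans ran between 1.83 and 63.3 kb. The gap between neighbours had a median of 1266 bp, and 31.2% of gaps were under 500 bp. Chains lay on 22 chromosomes. Members made up 11.5% of the regions of chromosome 17, 9.29% of chromosome 1 and 9.22% of chromosome 16, but 0.502% of chromosome 13 and 0.336% of chromosome X. Chromosome 18 had 778 regions and no dense chain.

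Members were close to other regions in width and level. Their median width was 325 bp, against 319 bp over all regions. In DMSO libraries they had a median of 32.2 CPM per kb, against 31.5 in regions of chains of 2 to 4, 34.5 in regions with no neighbour within 5000 bp and 33.7 over all regions. The wide regions, which were left out, had a median of 47.4 CPM per kb over all 3340 of them. A wide region lay in 240 of the 625 chains (38.4%). All 3345 members passed the filter on low counts and were tested.

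One stretch of chromosome 12 needs its own account. Rh30 cells are known to carry an amplified segment of the long arm of this chromosome that includes CDK4, a cell cycle kinase. Between 57 and 59 Mb lay 72 members in 11 chains, 2.15% of members, against 0.374% of all regions. Members were 33.8% of the 213 regions there. Copy number was not measured here, and the share of reads from this stretch was 1.67% to 1.74% in experiment 6086 and 1.34% to 1.66% in experiment 6211. In experiment 6211 the highest share was in a 2 h library and the lowest in a DMSO library. The 2 h results on members are given with and without it.

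After 2 h of dTAG47, accessibility both fell and rose in dense chains. The balance of the directions depended on the tool, the libraries and the experiment: of the member calls in experiment 6086, 54.3% were lower with edgeR and 82.6% with DESeq2. Over all regions edgeR called 2418 lower and 557 higher, and DESeq2 1328 and 70. With both tools lower calls thus held a larger share over all regions than among members. In experiment 6086, 100 of 3345 members were called lower (2.99%, against 4.25% of all 56945 regions tested) and 84 higher (2.51%, against 0.978% of all regions tested). The members thus held a smaller share of lower calls and a larger share of higher calls than the whole set. Experiment 6211, which has its own DMSO group, also had calls in both directions. There 1797 members (53.7%) had a single matching region, and 59 of these were lower (3.28%, against 4.92% of all 40844 regions) and 87 higher (4.84%, against 1.97%). Outside 57 to 59 Mb of chromosome 12 there were 59 lower and 64 higher. Regions of experiment 6211 are nearly all of 1 fixed width, so very short and very long members could not match. Changes were small: 6 members fell 2-fold or more in experiment 6086 (0.179%, against 0.341% of all regions), and the highest called log2 change was 0.78. The median log2 change was -0.49 over the called lower members and 0.33 over the called higher ones.

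The share of higher calls was larger in dense chains than in shorter chains and single regions. At 2 h in experiment 6086 it was 0.732% in the 26363 regions with no neighbour, 0.971% in regions of chains of 2 to 4 and 2.51% in dense chains. The share of lower calls ran the other way, at 4.84%, 3.77% and 2.99%. Outside 57 to 59 Mb of chromosome 12 the higher shares were 0.729%, 0.960% and 2.32%. Within dense chains closeness did not go the same way: 1.90% of members with a region within 500 bp were higher at 2 h, against 3.03% of members with none that close. Just outside the rule, regions in the 799 chains of exactly 4 had 1.11% higher and 3.26% lower calls, and just inside it members of chains of exactly 5 had 2.27% and 3.35%. In chains of 8 or more regions, 18 of 494 members were higher (3.64%) and 7 were lower (1.42%), and outside 57 to 59 Mb of chromosome 12, 12 of 452 were higher (2.65%) and 6 lower (1.33%). By width, the 116 members closest under the limit of 1000 bp had 4 higher and 5 lower calls, and the 80 regions of the chains closest above it, which were left out, had 3 and 6.

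Members were also set against other regions at like depth. When regions were split into 4 equal bins by mean count, the share called higher at 2 h in experiment 6086 was larger among members than among all other regions in every bin. In the lowest bin it was 0.768% against 0.518%, and in the highest bin 4.65% against 1.38%. The share called lower was smaller among members in each bin, with 1.32% against 4.25% in the lowest and 3.65% against 3.76% in the highest, where 3.47% of single regions were lower. In the most deeply counted bin members therefore differed from other regions mainly in their higher calls.

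The number of higher calls depended on single libraries. Without 2 h library A it was 19 in experiment 6086, without 2 h library B 29 and without DMSO library A 44, against 84 with all libraries. The lower calls numbered 64 without 2 h library A. In experiment 6211 the higher calls numbered 14 without 2 h library B and 21 without DMSO library A, against 87, and the lower calls 35 without 2 h library B, against 59. DESeq2 called 12 members higher and 57 lower in experiment 6086, and 29 higher and 39 lower in experiment 6211. Far fewer regions of the whole set were then called as well: members made up 15.1% of all higher regions at 2 h in experiment 6086, 17.1% by DESeq2 and 12.7% without 2 h library A, although they are 5.87% of all regions. Outside 57 to 59 Mb of chromosome 12, 76 of 3273 members were higher and 99 lower.

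**Figure D1:**
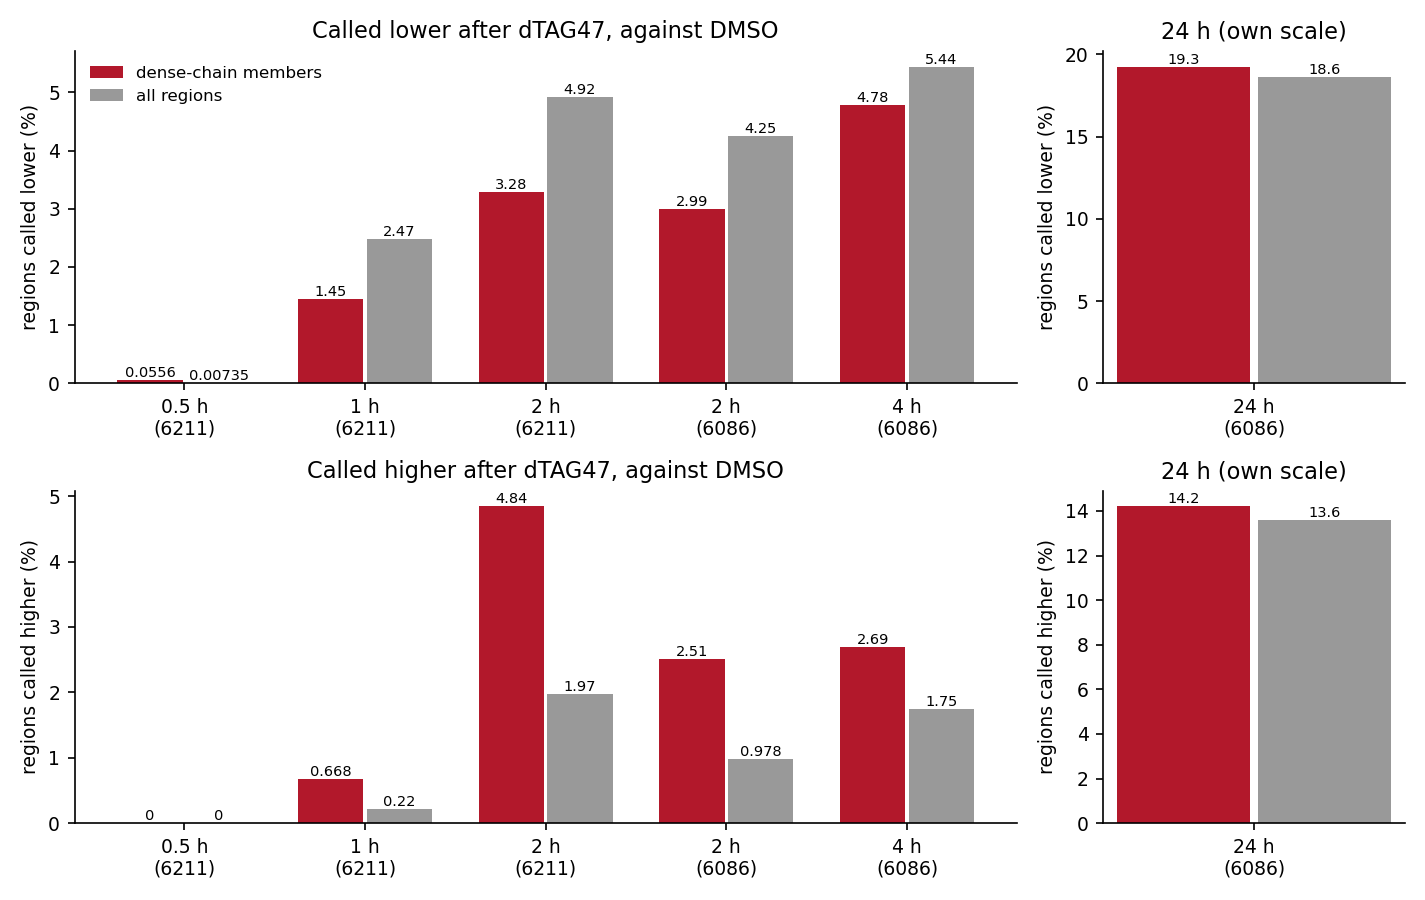
Percent of regions called lower (top) and higher (bottom) after dTAG47, for dense-chain members (red) and all regions tested (grey), by edgeR at an adjusted p under 0.05. The 24 h comparison has its own axis. Bars for experiment 6211 use its 1797 matched members. At 2 h members were called higher more often than all regions in both experiments (2.51% against 0.978% and 4.84% against 1.97%), and at 24 h the bars lie close together.

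The small shift at 2 h was also seen in the bulk of the members. The median member of the 2 h libraries A and B of experiment 6086 stood 0.052 and 0.037 log2 units above the mean of the DMSO libraries, which themselves lay at -0.00057 and 0.00057. In experiment 6211 the 2 h libraries lay at 0.085 and 0.095, against -0.016 and 0.016 in DMSO. The treated and DMSO libraries did not overlap in either experiment. With 2 libraries a group, an exact permutation test cannot give a two-sided p below 0.333, and it gave 0.333 in both. Over all regions tested, the median lay between -0.00425 and 0.0102 in every library. In the fit of experiment 6086 the median 2 h log2 change was 0.043 in members and 0.029 in members of chains of exactly 5. It was 0.022 in regions under 1000 bp in chains of exactly 4, just outside the rule. The shift thus did not begin at the limit of 5 regions. The members took 5.32% and 5.28% of the reads in regions at 2 h in experiment 6086, against 5.15% and 5.17% in DMSO. In experiment 6211 the matched members took 4.17% and 4.24% at 2 h, against 3.94% and 4.02% in DMSO. Outside 57 to 59 Mb of chromosome 12 the median members of the 2 h libraries lay at 0.048 and 0.033 in experiment 6086, against -0.0017 and 0.0017 in DMSO, and at 0.081 and 0.089 in experiment 6211, against -0.013 and 0.013. There the 2 h mean shares of reads were 5.16% in experiment 6086 and 4.05% in experiment 6211, against 5.04% and 3.87% in DMSO.

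Earlier and later libraries placed this shift in time. Median members at 0.5 h lay at 0.020 and 0.036, and at 1 h at 0.044 and 0.092, above both DMSO libraries of experiment 6211. In the fit, the median log2 change of the matched members was 0.025 at 0.5 h and 0.073 at 1 h, but 0.0062 and 0.043 without DMSO library A. It was 0.043 at 1 h without 1 h library B, and 0.047 at 0.5 h without DMSO library B. At 4 h in experiment 6086 they lay at 0.014 and 0.027, above both DMSO libraries, and at 24 h at -0.015 and 0.0015, one below and one above both. By group mean the shift was largest at 2 h in each experiment, but in experiment 6211 1 h library B stood above 2 h library A, so those groups overlapped. The 24 h libraries lay on both sides of DMSO.

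**Figure D2:**
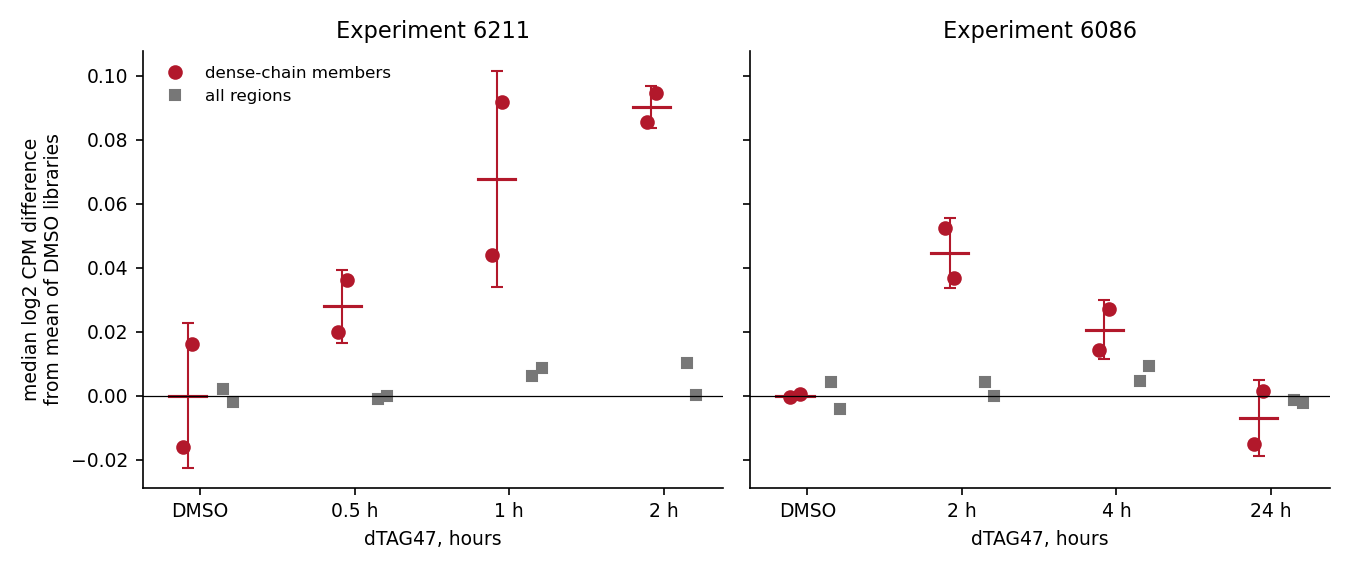
Median log2 CPM difference from the mean of the DMSO libraries, for dense-chain members (red circles, with group mean as a line and SD as an error bar, n = 2) and for all regions (grey squares), in each library. Groups run from DMSO to the longest time, with times evenly spaced. Members lie above DMSO at 2 h in both experiments (0.085 and 0.095 in 6211, 0.052 and 0.037 in 6086), while all regions stay near 0.

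Calls built up within the first hour. At 0.5 h 1 of the 1797 matched members was called lower (0.0556%, against 0.00735% of all regions) and 0 higher (against 0% of all regions). At that time 118 of the 1797 matched members had an unadjusted p under 0.05, against 2723 of all 40844 regions, a similar share. DESeq2 also called 1 matched member lower and 0 higher, against 2 and 0 of all regions. Without DMSO library B the 0.5 h calls were 3 lower and 4 higher, and when DMSO library A or either 0.5 h library was left out 0 were lower. At 1 h 26 were lower (1.45%, against 2.47%) and 12 higher (0.668%, against 0.22%). Leaving out DMSO library A gave 10 lower and 0 higher calls at 1 h, and leaving out DMSO library B gave 42 and 71. Leaving out 1 h library B gave 7 lower and 0 higher calls, and leaving out 1 h library A gave 40 higher calls. The counts at 1 h thus depended on which libraries entered.

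The experiments can be set against each other at 2 h, since they share no control library. Of matched members, 77 were lower in experiment 6086 and 59 in experiment 6211, and 51 were lower in both, 66.2% of the first list and 86.4% of the second. All 77 had a negative log2 change in experiment 6211. For higher calls the lists held 63 and 87 members and shared 20, 31.7% of the first and 23.0% of the second; 15 of the 20 lay outside 57 to 59 Mb of chromosome 12. Of the 63, 62 had a positive log2 change in experiment 6211. No member was called in opposite directions. Over the 1797 matched members the 2 h log2 changes of the experiments correlated with Pearson's r = 0.700 and Spearman's rho = 0.553. These regions share libraries and are not independent replicates. The overlaps and correlations were not set beside those of all 29639 matched regions, so whether they are particular to dense chains was not tested.

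Because experiment 6211 chose them independently, its 2 h calls show how such members behaved later in experiment 6086. The 59 members lower at 2 h in experiment 6211 had median log2 changes of -0.49, -0.65 and -0.82 after 2, 4 and 24 h in experiment 6086. Of these, 51 were called lower at 2 h, 56 at 4 h and 55 at 24 h, and all 59 were below 0 at each time. The 87 members higher at 2 h in experiment 6211 had medians of 0.20, 0.11 and 0.044 at those times. At 24 h 28 of them were called higher and 21 lower. The 64 of these outside 57 to 59 Mb of chromosome 12 had medians of 0.19, 0.17 and 0.12, with 26 higher and 12 lower at 24 h. Over all regions tested in experiment 6086, 18.6% were lower and 13.6% higher at 24 h. Early losses in dense chains thus went with lower accessibility at every later time. Outside that stretch early gains were called higher at 24 h more often than all regions. Their lower calls there lay near the share of all regions. The 3 comparisons within experiment 6086 share the DMSO libraries.

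At 4 h the share of higher calls by edgeR in members stood less far above that of all regions than at 2 h. There 160 members were lower (4.78%, against 5.44% of all regions) and 90 higher (2.69%, against 1.75%). Without 4 h library B the counts were 101 lower and 31 higher, and without 4 h library A 48 were higher. DESeq2 called 89 lower and 27 higher, of 1917 and 186 over all regions. Members thus made up 9.05% of all higher regions at 4 h by edgeR and 14.5% by DESeq2. At 2 h these shares were 15.1% and 17.1%, so the size of the drop from 2 h depended on the tool.

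By 24 h calls were frequent across the genome and in dense chains alike. At that time 644 members were lower (19.3%, against 18.6% of all regions) and 475 higher (14.2%, against 13.6%). Both shares were near those of all regions, so the calls at 24 h did not set dense chains apart. At least 2-fold changes were seen in 55 lower and 13 higher members (1.64% and 0.389%, against 1.95% and 0.436% of all regions). In the most deeply counted bin, members were called more often than other regions in both directions, with 22.8% lower against 16.2% and 18.1% higher against 11.7%. In the lowest bin they were called less often in both, with 11.7% lower against 16.3% and 12.2% higher against 15.2%. Directly compared with 2 h, the 24 h libraries had 749 members lower (22.4%, against 17.6% of all regions) and 336 higher (10.0%, against 12.8%). The 336 became 212 without 24 h library B. The median log2 change between those times was -0.032 in members and 0.0092 over all regions.

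The most open site of each chain was also looked at. It was chosen by its level in the same DMSO libraries against which change is measured, a choice that favours lower calls, so its shares are a description only. At 24 h, 149 of the 625 members with the highest DMSO level per kb in their chain were lower (23.8%) and 76 higher (12.2%), against 18.2% and 14.7% of the other members. At 2 h 4.96% of these most open members were lower and 2.88% higher, against 2.54% and 2.43% of the others. Members with another region within 500 bp were called less in both directions at 24 h, with 15.5% lower and 10.9% higher, against 22.4% and 17.0% of members with no region that close. Neither difference between these shares was tested, and counts per region differ between the sets.

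Within a chain, early changes went one way and late changes often went both. At 2 h 145 chains held a called member and 26 held at least 2. Of these 26, 18 had lower members only, 7 had higher members only and 1 had both (3.85%). Outside 57 to 59 Mb of chromosome 12 these were 18, 5 and 1 of 24. At 4 h 47 chains held at least 2 called members, 32 lower only, 7 higher only and 8 both (17.0%). At 24 h 334 chains did, 119 lower only, 65 higher only and 150 both (44.9%). More chains have many calls at 24 h, which by itself gives more room for both directions. Every member was lower in 1 chain at 2 h, 1 at 4 h and 4 at 24 h, and every member was higher in 4 chains at 24 h.

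**Figure D3:**
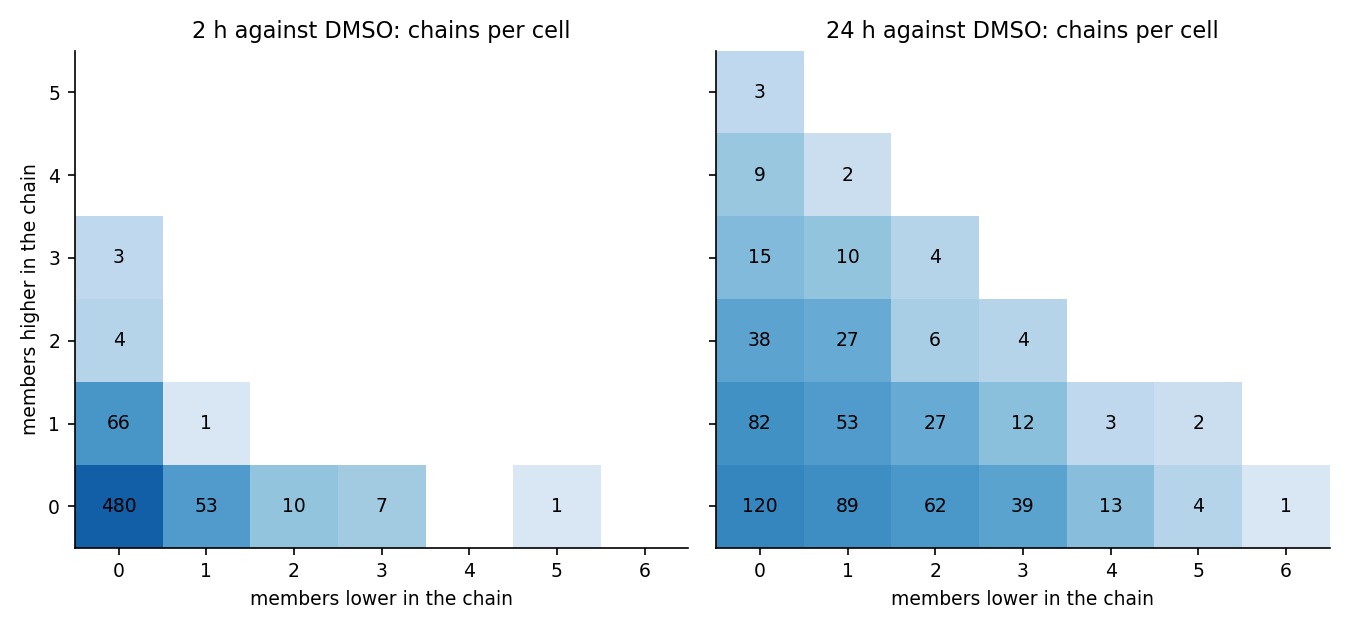
Number of dense chains (printed in each cell, darker for more on a log scale) by how many of their members were called lower (x axis) and higher (y axis), at 2 h and at 24 h against DMSO. At 2 h 480 chains had no call and all but 1 of the other chains lie on an axis, while at 24 h 150 chains lie off both axes.

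Neighbours shared part of their change. Over 2535 pairs of adjacent members the log2 changes correlated with a Spearman rho of 0.249, 0.255 and 0.250 after 2, 4 and 24 h. At 24 h rho was 0.394 for the 809 pairs less than 500 bp apart and 0.192 for the 711 pairs at least 2500 bp apart. These pairs share libraries and, in part, members. The SD of the 24 h log2 change within chains was 0.322, against 0.358 over all members. In the median chain the lowest and the highest member differed by 0.34 log2 units at 2 h and by 0.66 at 24 h. The spread within chains at 24 h was thus nearly as large as that over all members. Both SDs include the count noise of single regions, and how well a chain predicts its members was not tested.

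When the counts of all members of a chain were summed and tested beside every other chain and single region, 40 chains were lower at 2 h (6.40%, against 5.52% of 37684 such units) and 36 higher (5.76%, against 1.26%). Here too the share of higher calls stood above that of all units. The sums use the same reads as the tests of members, so they are no separate evidence. A sum pools the reads of several regions, while many of the other units are single regions. The shares were thus not compared at like depth, and the part of depth was not tested. With library size alone as the scale the split was 36 lower and 57 higher, and with median-ratio size factors 37 lower and 50 higher, so which direction was commoner at 2 h depended on the scale. Without 2 h library A the counts were 24 lower and 15 higher, without 2 h library B 24 were lower and without DMSO library B 56 were higher. Of the 36 higher chains, 6 lay between 57 and 59 Mb of chromosome 12. At 4 h 60 chains were lower (9.60%, against 6.87%) and 34 higher (5.44%, against 1.99%), a split of 54 and 52 with library size alone. Without 4 h library A these were 37 and 16, and the higher ones numbered 11 without 4 h library B and 16 without DMSO library A. At 24 h 158 were lower (25.3%, against 20.3%) and 117 higher (18.7%, against 15.8%), and 73 were higher without 24 h library B. No called chain changed 2-fold or more as a whole at any of these times. In 16 of the chains called at 2 h no single member had passed its own test.

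One chain on chromosome 9 lost accessibility throughout. The chain at chr9:133346738-133356407 has 5 members over 9.67 kb. Its summed level was 99.7 and 94.8 CPM at 2 h of dTAG47, against 172 and 171 CPM in DMSO. The libraries did not overlap, and the log2 change was -0.82 (SE 0.0438, edgeR's quasi-likelihood adjusted p = 1.05e-14). Sums at 4 h were 90.7 and 91.2 CPM and at 24 h 86.3 and 88.5 CPM, so most of the loss in this experiment was present by 2 h. All 5 members were lower at 2, 4 and 24 h. In experiment 6211 3 members had a match, not including the first and the fourth, and 1 of them was lower at 2 h, with log2 changes between -0.45 and -0.19. The first member, chr9:133346738-133347634, had 16.4 and 15.9 CPM at 2 h and 10.1 and 12.5 CPM at 24 h, against 34.4 and 34.5 CPM in DMSO. The last, chr9:133355873-133356407, had 17.3 and 14.8 CPM at 2 h, against 19.8 and 22.9 CPM in DMSO, and a log2 change of -0.42. Depth of loss thus differed within 1 chain, with 24 h log2 changes of -1.61, -0.62, -0.69, -1.16 and -0.44 along it.

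The chain at chr6:44621459-44640163, with 7 members and 2 wide regions over 18.7 kb, held the deepest single loss. Its member chr6:44628171-44628686 had 12.7 and 12.8 CPM at 2 h, against 42.5 and 38.4 CPM in DMSO. At 4 h it had 7.81 and 9.27 CPM and at 24 h 4.34 and 3.61 CPM, lower at each later time. The log2 changes were -1.66 (SE 0.0851), -2.23 and -3.34 (SE 0.0992), with an edgeR adjusted p of 6.8e-23 at 24 h. The matching region of experiment 6211 had 39.4 and 42.4 CPM at 0.5 h, 36.2 and 36.4 CPM at 1 h and 18.1 and 17.7 CPM at 2 h, against 62.3 and 62.0 CPM in DMSO. Its log2 changes were -0.61, -0.78 and -1.80, and it was the 1 matched member called at 0.5 h (edgeR adjusted p = 0.0086). The next member, chr6:44628987-44629335, had a 24 h log2 change of -0.70. At the far end chr6:44639912-44640163 had 8.45 and 9.47 CPM at 24 h, against 9.24 and 9.66 CPM in DMSO, and was not called. At 24 h 4 of its 7 members were lower, and the depth of loss was far from even along the chain.

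On chromosome 17 the member chr17:27377968-27378827, in a chain of 6 regions, had 20.3 and 17.98 CPM at 2 h, against 48.1 and 49.2 CPM in DMSO. It had 8.68 and 7.07 CPM at 24 h, and the log2 changes after 2, 4 and 24 h were -1.34, -1.75 and -2.63 (at 24 h SE 0.0849, edgeR adjusted p = 3.5e-22). A separate dense chain on the same chromosome, chr17:27292707-27300779, was among the 3 with the lowest summed change at 24 h. Its sums were 79.0 and 80.9 CPM at 24 h, against 153 and 148 CPM in DMSO, a log2 change of -0.91 (SE 0.0453, edgeR adjusted p = 3.58e-17). The loss sat in its middle, where chr17:27295296-27296174 and chr17:27296784-27297378 had log2 changes of -1.56 and -1.54 at 24 h. The outermost members had log2 changes of 0.024 and 0.039 and were not called.

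Other chains with large losses showed the same unevenness. In chr19:49148124-49160770 the sums were 109 and 106 CPM at 24 h, against 201 and 195 CPM in DMSO, and 4 of 5 members were lower. Its first member had a 24 h log2 change of -0.033, and chr19:49157661-49158407 one of -1.09, with 39.0 and 38.2 CPM at 24 h, against 83.2 and 81.5 CPM in DMSO. In chr1:117391534-117398792 the sums were 52.4 and 53.5 CPM at 2 h and 42.7 and 41.5 CPM at 24 h, against 76.9 and 75.8 CPM in DMSO. The 3 members at one end of it fell at 2, 4 and 24 h, and neither of the other 2 was called at those times. In chr21:43870060-43887803 5 of 6 members were lower at 24 h, led by chr21:43875319-43875752 with a log2 change of -1.37. Only that member was called at 2 h and at 4 h.

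Where all members of a chain were lower at 24 h, they could also have been called at different times. Calls depend on a threshold, and whether loss followed an order along the chain was not tested. In chr2:197127870-197141065 all 6 members were lower at 24 h, but at 2 h only chr2:197138945-197139531 was, with 16.1 and 17.2 CPM, against 25.4 and 25.2 CPM in DMSO. At 24 h that member stood at 16.1 and 16.5 CPM, and its log2 change was -0.60 at 2 h and -0.63 at 24 h. At 4 h 3 of the 6 were lower. In experiment 6211 2 of 5 matched members, this one and its neighbour named next, were lower at 1 h and at 2 h, with 2 h log2 changes of -0.82 and -0.62. The neighbour, chr2:197133907-197134227, had 7.05 and 7.85 CPM at 2 h and 4.14 and 5.58 CPM at 24 h, against 9.69 and 9.31 CPM in DMSO. The 24 h log2 changes along this chain were -0.60, -0.87, -0.96, -0.63, -0.43 and -0.37. The summed log2 change was -0.22, -0.34 and -0.63 after 2, 4 and 24 h (at 24 h SE 0.0503, edgeR adjusted p = 5.17e-12).

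**Figure D4:**
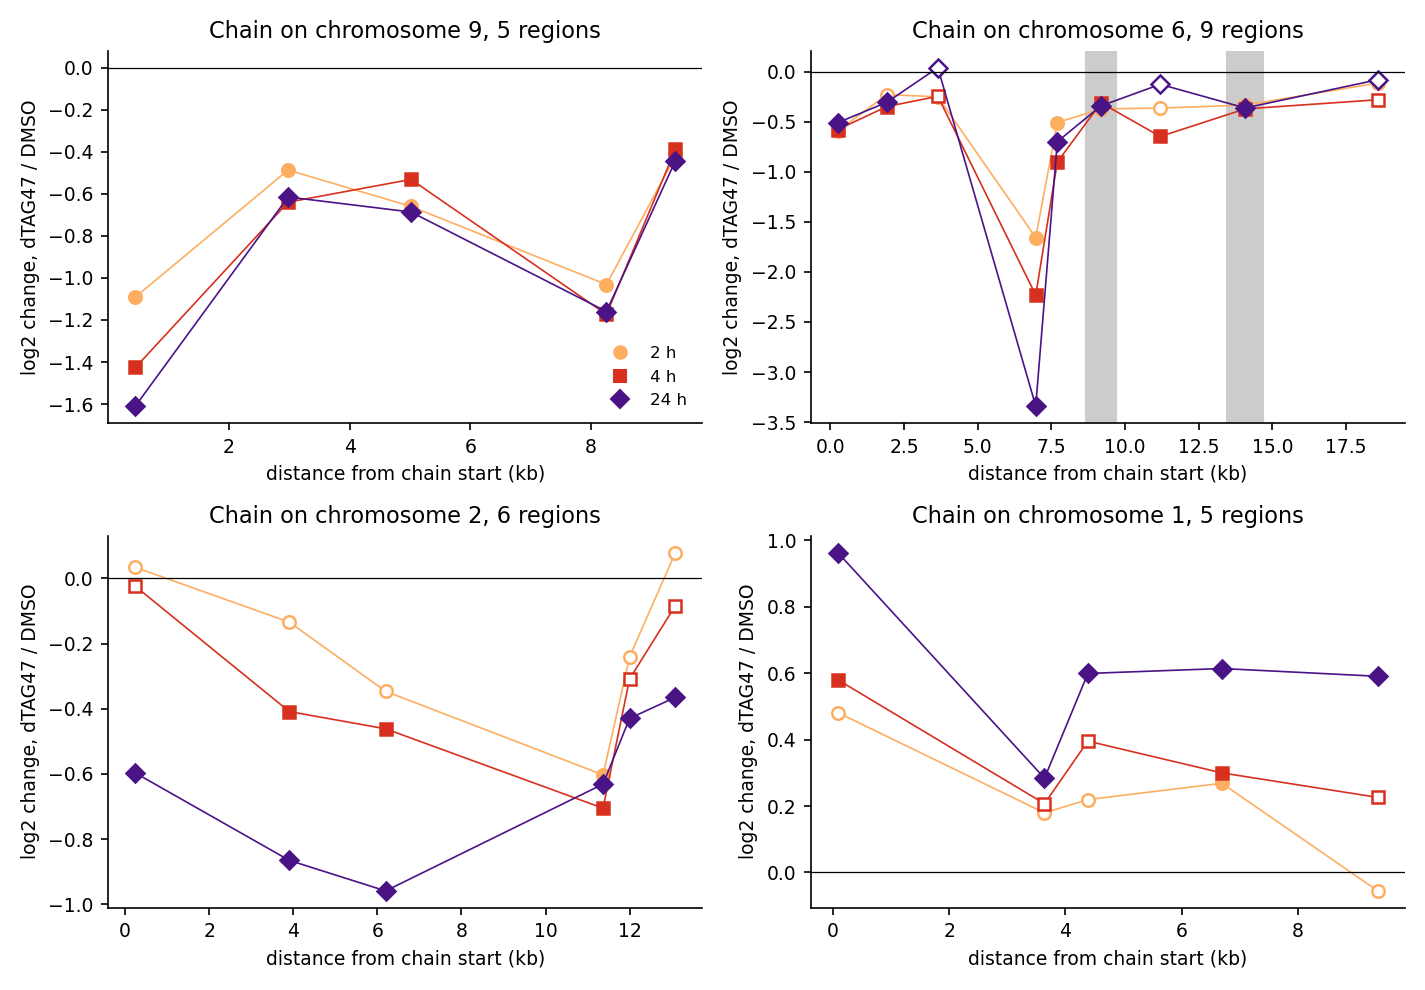
Log2 change of each region along 4 dense chains at 2, 4 and 24 h of dTAG47 against DMSO, by distance of its midpoint from the chain start. Filled symbols passed edgeR's test, open ones did not, and grey bands are regions of 1000 bp or more that are no members. The chromosome 9 chain fell at all 5 members at each time, the chromosome 6 chain fell most at 1 member (-3.34 at 24 h), the 6 members on chromosome 2 were all lower by 24 h, and the 5 on chromosome 1 were all higher by 24 h.

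Single members followed distinct courses of loss. On chromosome 20, chr20:37440405-37440693 had 2.45 and 2.03 CPM at 2 h and 1.55 and 1.46 CPM at 24 h, against 5.88 and 6.45 CPM in DMSO. Its log2 change was -1.47 at 2 h (SE 0.159, edgeR adjusted p = 2.7e-08) and -2.05 at 24 h, and in experiment 6211 it was -1.42 at 2 h. In contrast chr3:45589693-45590188 had 15.1 and 16.1 CPM at 2 h, against 15.1 and 13.9 CPM in DMSO, and was not called at 2 or 4 h. At 24 h it had 3.19 and 3.26 CPM, a log2 change of -2.16 (SE 0.114, edgeR adjusted p = 1.1e-16), and of -2.27 against 2 h. Its matching region was not called in experiment 6211, with 36.3 and 37.3 CPM at 2 h, against 40.7 and 38.3 CPM in DMSO.

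Gains were followed at the members with the highest log2 changes. None of the members chosen for these had a matching region in experiment 6211, so their gains could not be looked up there. The member chr10:81243917-81244072, 155 bp wide, had 4.80 and 4.75 CPM at 24 h, against 1.74 and 1.25 CPM in DMSO. The groups did not overlap, which the choice of named members required. The log2 change was 1.71 (SE 0.188, edgeR adjusted p = 5.2e-09), after 0.71 at 2 h, which did not pass, and 1.14 at 4 h. It belongs to chr10:81242643-81255317, in which all 5 members were higher at 24 h. The sum of that chain was 144 and 150 CPM at 24 h, against 123 and 127 CPM in DMSO, a log2 change of 0.23 (SE 0.0436, edgeR adjusted p = 6.11e-05). Its most open member, chr10:81250005-81250864, had 84.9 and 90.6 CPM at 24 h, against 77.1 and 81.9 CPM in DMSO, a log2 change of 0.14.

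On chromosome 1, chr1:40361400-40361787 had 13.9 and 14.5 CPM at 24 h, against 4.26 and 5.52 CPM in DMSO. Its log2 change was 1.51 at 24 h (SE 0.115, edgeR adjusted p = 1.2e-12), while at 2 h the 5.48 and 6.50 CPM did not pass. The member chr10:121123971-121124142 had 5.66 and 5.01 CPM at 24 h, against 1.96 and 2.07 CPM in DMSO, a log2 change of 1.39. Both of these gains came between 2 and 24 h, with log2 changes of 1.24 and 1.28 between those times.

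Early gains were smaller. The member chr10:80715055-80715211 had 5.27 and 4.98 CPM at 2 h, against 3.14 and 3.05 CPM in DMSO, a log2 change of 0.73 (SE 0.152, edgeR adjusted p = 0.0013). It stayed there, with log2 changes of 0.72 at 4 h and 0.76 at 24 h. The member chr12:52583338-52583477 had 3.24 and 3.55 CPM at 2 h, against 1.96 and 2.03 CPM in DMSO, but 1.74 and 1.96 CPM at 24 h. Its log2 change was 0.76 at 2 h (SE 0.190, edgeR adjusted p = 0.01) and -0.11 at 24 h, and the fall of 0.87 between those times passed the test. The call at 2 h was lost with DESeq2 (adjusted p = 0.232) and when either DMSO library B or 2 h library B was left out. The highest 2 h change, 0.78 at chr7:44924607-44924728, rests on 3.03 and 2.36 CPM, against 1.40 and 1.68 CPM in DMSO. That call was lost with DESeq2 (adjusted p = 0.343), when 2 h library A was left out, and when either DMSO library was. At 4 h chr1:936508-936659 had 2.26 and 2.52 CPM, against 1.51 and 1.13 CPM in DMSO, a log2 change of 0.89 whose call was lost with DESeq2 (adjusted p = 0.218) and when either DMSO library B or 4 h library B was left out.

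**Figure D5:**
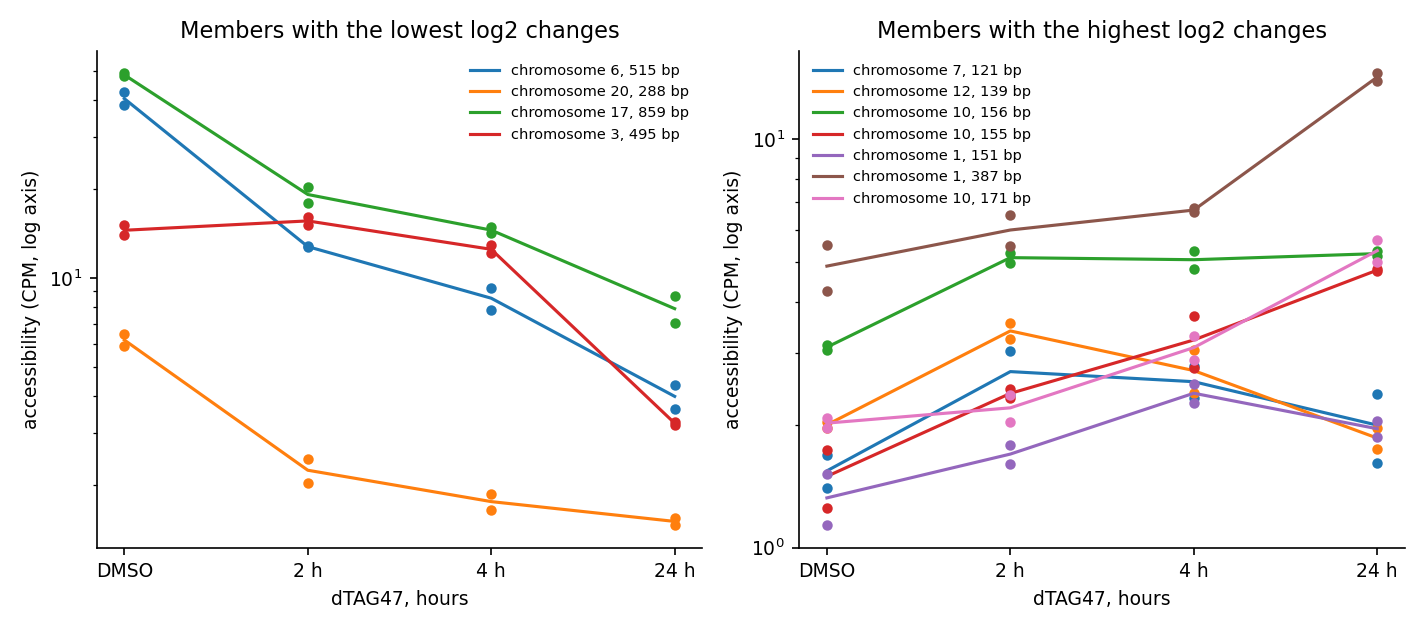
Level in CPM (log axis) of the dense-chain members with the lowest (left) and highest (right) log2 changes at 2, 4 or 24 h, in each library (points) with group means joined, with DMSO at the left and times evenly spaced. The chromosome 6 member fell to 4.34 and 3.61 CPM at 24 h, against 42.5 and 38.4 CPM in DMSO, the chromosome 3 member changed only at 24 h, and all but 1 of the members with the highest changes stayed under 6 CPM.

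Gains spread along some chains. In chr1:228098336-228107845 all 5 members were higher at 24 h, with log2 changes of 0.96, 0.28, 0.60, 0.61 and 0.59. The sum was 122 and 126 CPM at 24 h, against 87.8 and 89.3 CPM in DMSO, a log2 change of 0.49 (SE 0.0465, edgeR adjusted p = 2.51e-10). It had begun at 2 h, with 103 and 102 CPM and a log2 change of 0.21. In chr16:30381473-30390347 the 4 members between 2 wide regions were all higher at 24 h, and their sum was 116 and 113 CPM, against 73.1 and 79.2 CPM in DMSO, a log2 change of 0.59. The wide regions at its ends had log2 changes of 0.085 and 0.019 and were not called. In chr16:70719933-70737789 5 of 10 members were higher at 24 h and the summed log2 change was 0.22.

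The 3 chains with the highest summed changes at 2 h were not called at 24 h. In chr9:140114812-140122261 the sum was 80.1 and 79.5 CPM at 2 h, against 63.8 and 65.8 CPM in DMSO, a log2 change of 0.30 (SE 0.0540, edgeR adjusted p = 0.000195). At 24 h it was 64.5 and 66.5 CPM, a log2 change of 0.012. In chr1:19248801-19256585 the sum was 95.1 and 99.7 CPM at 2 h, against 79.5 and 82.9 CPM in DMSO, a log2 change of 0.26, and 78.1 and 85.0 CPM at 24 h. Beneath that sum at 24 h, 2 of its 6 members were higher and 2 lower, with chr1:19252986-19253399 at 6.05 and 6.62 CPM, against 10.98 and 11.9 CPM in DMSO.

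Of the 6 chains with the most regions, 3 were on chromosome 12. The longest, chr12:58106540-58169872, had 24 regions, 15 of them members and 9 of them wide. Its members summed to 382 and 368 CPM at 2 h, against 353 and 330 CPM in DMSO, a log2 change of 0.14 (SE 0.0362, edgeR adjusted p = 0.0151), though no single member passed at 2 h. At 24 h 5 of its members were lower and 1, chr12:58106540-58106945, was higher, with 13.1 and 13.9 CPM, against 7.62 and 6.02 CPM in DMSO. In experiment 6211, 4 of its 6 matched members were higher at 2 h. The chain at chr12:58217239-58247675, with 13 regions, summed to 222 and 210 CPM at 2 h, against 194 and 168 CPM in DMSO, a log2 change of 0.26, and to 174 and 184 CPM at 24 h, which overlapped DMSO. At 2 h 5 of its 6 matched members were higher in experiment 6211, and 3 of its 9 members in experiment 6086.

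Within 57 to 59 Mb as a whole, 23 of 42 matched members were higher at 2 h in experiment 6211 (54.8%, against 1.97% of all its regions). Their median log2 change was 0.51. The share over all regions of the stretch was not set beside this in experiment 6211. Whether it belongs to members or to the whole stretch was therefore not tested there. In experiment 6086 8 of 72 were higher (11.1%) and 1 lower at 2 h, with a median of 0.16, against 17 higher (7.98%) and 8 lower of all 213 regions of the stretch. At 4 h 3 members were higher and 2 lower. At 24 h 10 members were higher (13.9%) and 16 lower (22.2%), against 10.3% and 25.4% of all regions of the stretch. The share of reads from this stretch moved with these values in experiment 6211, at 1.53% and 1.66% at 2 h, against 1.34% and 1.45% in DMSO, and its part in the result was not tested. Outside it 64 of 1755 matched members were higher at 2 h in experiment 6211, which is 3.65%.

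The other 4 of these chains had members called in both directions at 24 h, and 3 of the 4 also passed as sums. In chr12:57650595-57674596, with 13 regions, chr12:57655983-57656719 had 46.1 and 48.6 CPM at 24 h, against 23.6 and 23.2 CPM in DMSO, and chr12:57673987-57674596 had 27.3 and 30.04 CPM, against 43.9 and 40.4 CPM. The sum of that chain passed at 24 h with a log2 change of 0.13. In chr17:75415643-75440967, whose 13 regions are all members, 2 were higher and 3 lower at 24 h, and the summed log2 change of -0.046 did not pass. In chr1:27915486-27934201 4 of 11 members were higher and 1 lower at 24 h, and the summed log2 change of 0.22 passed. In chr20:60930567-60962276, where 5 of 12 regions are wide, 1 of 7 members was higher and 2 lower, with a summed log2 change of 0.18 that passed.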

How the data were processed

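The authors deposited raw read counts per consensus region for each library, and these count tables of both experiments were the only values used. The submitters' processing notes list Bowtie2, Trimmomatic 0.32, deepTools, Genrich 0.6.1, DESeq2 and DiffBind, and the builds hg19 and dm3, without roles. Coordinates are taken as hg19. How peaks were merged into regions is not known from these notes, and it decides which neighbours stay separate. Another 96 columns of per-library values, in the authors' comparison tables, were not used.

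All 8 libraries of an experiment were fitted together with edgeR 4.0.16 in R 4.3.3 (TMM, filterByExpr, quasi-likelihood test, Benjamini-Hochberg adjustment over all regions). The standard error is the size of the log2 change divided by the square root of F. Chain sums were fitted the same way over all chains and single regions. Regions were matched between experiments with bedtools 2.31.1 at 50% reciprocal overlap with 1 partner. The tests were tried on simulated data. TMM scaling hides a shift shared by all regions.

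The members and lists were chosen with earlier results of these data known. Named members had an adjusted p under 0.05, an average of 30 or more reads and no overlap between dTAG47 and DMSO libraries, and are the 3 lowest and 3 highest log2 changes at each time. Named chains are the 5 with most regions (6 with a tie), the 3 with most lower and most higher members at 24 h (ties by adjusted p) and the 3 lowest and highest sums at 2 h and 24 h. Regions named inside these chains were chosen after their values were seen. Alternatives were DESeq2 1.42.0, library size only, median-ratio size factors, a limma 3.58.1 loess offset (not for sums), no filter, a library-letter block, only the groups compared, each library left out, and other gaps, chain sizes and overlaps. Gene names, promoters and motifs need an hg19 annotation and were not analysed here.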

Additional observations from a re-analysis of the deposited data

How the results depend on the processing

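Percentages here are of members, or of chains for sums. With DESeq2 in place of edgeR, members lower and higher were 1.70% and 0.359% at 2 h, 2.66% and 0.807% at 4 h, 12.7% and 8.13% at 24 h and 14.3% and 4.96% for 24 h against 2 h. Of all regions DESeq2 called lower and higher, members made up 4.29% and 17.1% at 2 h and 4.64% and 14.5% at 4 h. At 24 h these were 5.98% and 6.48%, near the 5.87% of all regions that are members. For 24 h against 2 h they were 7.49% and 4.99%. In experiment 6211 the matched members lower and higher by DESeq2 were 0.668% and 0% at 1 h and 2.17% and 1.61% at 2 h. Chain sums by DESeq2 were 4.00% lower and 2.24% higher at 2 h, 1.12% higher at 4 h and 12% higher at 24 h. Of the 2 h member calls in experiment 6086, 54.3% were lower in the edgeR fit and 82.6% with DESeq2. With both tools that share was larger over all regions than among members. With only the groups compared, higher calls were 1.46% at 2 h, 1.76% at 4 h, and in experiment 6211 0.111% at 1 h and 3.23% at 2 h, and for sums 3.52% at 2 h and 2.56% at 4 h. With library size only, higher sums were 9.12% at 2 h and 8.32% at 4 h, and the median log2 change of members after 2, 4 and 24 h was 0.057, 0.031 and 0.017 with library size only, and 0.043, 0.016 and -0.011 with TMM. In chains of 8 or more regions 1.42% were lower at 2 h. A gap of 10000 bp gave shares of reads of 14.7%, 14.5% and 14.3% after 2, 4 and 24 h, against 14.4% in DMSO, and without 57 to 59 Mb of chromosome 12 these were 5.16%, 5.08% and 5.02%, against 5.04%. The cause was not tested.

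The libraries' letters are not tied to the labels' replicate numbers, and A minus B differences correlated between groups at -0.137 to 0.211, so they did not pair libraries. With the replicate block members were 3.02% lower and 2.15% higher at 2 h, and higher calls at 1 h in experiment 6211 were 1.17%, the only count it moved by over 1.5 times.

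Leaving out each library in turn, members lower and higher ranged over 1.91% to 3.17% and 0.568% to 3.08% at 2 h, 3.02% to 5.08% and 0.927% to 2.72% at 4 h, 14.7% to 16.6% and 10.0% to 12.6% at 24 h, and 16.5% to 17.9% and 6.34% to 7.86% for 24 h against 2 h. In experiment 6211 they ranged over 0% to 0.167% and 0% to 0.223% at 0.5 h, 0.390% to 2.34% and 0% to 3.95% at 1 h, and 1.95% to 3.51% and 0.779% to 7.01% at 2 h. For sums they were 3.84% to 7.20% and 2.40% to 8.96% at 2 h, 5.92% to 10.2% and 1.76% to 6.72% at 4 h, and 20.5% to 24.0% and 11.7% to 17.3% at 24 h. None of these ranges of calls is set beside that of all regions here. Medians ranged over 0.032 to 0.049 at 2 h, 0.010 to 0.024 at 4 h and -0.022 to 0.0059 at 24 h. No named member changed sign under any of these. With 2 libraries a group, a lone library is assumed to vary like the other groups.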
